A study of Mus musculus with 63 samples.

Results

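Pomc cell genes were followed through the pituitary of stressed and unstressed mice: Pomc itself, 4 genes of the corticotrope (Crhr1, Avpr1b, Tbx19 and Pcsk1) and 3 genes of the melanotrope (Pcsk2, Pax7 and Oacyl). They were chosen by gene name, and all 8 were found, each once, among the 34745 genes of the pituitary table. All 8 also passed the filter on low counts, which left 17001 genes. The ovary, which these cells do not populate, served as an off-tissue reference.

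RNA was sequenced from whole pituitaries and ovaries of female C57BL/6 mice that had undergone chronic unpredictable mild stress (CUMS), in which mild stressors change from day to day, or had served as unstressed controls (Ctrl). The titles give an age of 2 months (2M) or 6 months (6M) and a duration of 8 weeks (8W) or 12 weeks (12W), so that the pituitary has 4 sets, 2M-8W and 2M-12W for the younger and 6M-8W and 6M-12W for the older mice, with 4 control and 4 CUMS libraries each (32 in all). The 31 ovary libraries follow the same plan, with 3 control ovaries in 6M-12W. No transgene or drug is named for any group, and the labels state neither the hour of collection, the estrous stage nor the moment at which age was counted. Nothing in the labels says that libraries of a group came from separate animals, so p-values measure the spread between these libraries, which may in part be technical.

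Pomc encodes pro-opiomelanocortin, a precursor that is cut into different hormones in different cells. In the corticotrope of the anterior lobe the prohormone convertase encoded by Pcsk1 releases ACTH, which drives the adrenal cortex to make glucocorticoids, and hypothalamic CRH and vasopressin stimulate this cell through the receptors encoded by Crhr1 and Avpr1b. In the melanotrope of the intermediate lobe the convertase encoded by Pcsk2 cuts further, to alpha-MSH and beta-endorphin. Both cells need the T-box factor Tbx19 (Tpit) to switch on Pomc, and the pioneer factor Pax7 sets the melanotrope apart. Since the libraries are of whole pituitaries, fewer cells of a type and less RNA per cell cannot be told apart.

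The sequence just upstream of Pomc is shown beside those of the 2 convertase genes, because the convertases define what each cell makes of the precursor. The windows are the 250 bases before the start in RefSeq annotation of GRCm38.p6, 5′ to 3′ on the plus strand, along which all 3 genes are transcribed. Capitals mark every match to 7 short motifs searched on both strands: an E-box (CANNTG), its canonical form (CACGTG), a Pitx site (TAATCC), a T-box half-site (TCACAC), a CRE half-site (TGACG), the core of the NBRE (AAGGTCA) and a TATA box (TATAAA).
Pomc, chr12:3954695-3954944, plus strand: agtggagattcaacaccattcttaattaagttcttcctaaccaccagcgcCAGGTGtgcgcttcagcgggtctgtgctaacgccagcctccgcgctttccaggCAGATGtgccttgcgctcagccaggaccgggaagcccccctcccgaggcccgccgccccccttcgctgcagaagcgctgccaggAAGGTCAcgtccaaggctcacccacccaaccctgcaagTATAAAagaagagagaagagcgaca
Pcsk1, chr13:75089607-75089856, plus strand: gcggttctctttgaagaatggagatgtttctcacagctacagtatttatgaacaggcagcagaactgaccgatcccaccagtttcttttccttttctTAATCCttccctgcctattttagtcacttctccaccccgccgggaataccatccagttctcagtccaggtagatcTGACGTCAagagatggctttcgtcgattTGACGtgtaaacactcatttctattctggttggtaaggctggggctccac
Pcsk2, chr2:143545883-143546132, plus strand: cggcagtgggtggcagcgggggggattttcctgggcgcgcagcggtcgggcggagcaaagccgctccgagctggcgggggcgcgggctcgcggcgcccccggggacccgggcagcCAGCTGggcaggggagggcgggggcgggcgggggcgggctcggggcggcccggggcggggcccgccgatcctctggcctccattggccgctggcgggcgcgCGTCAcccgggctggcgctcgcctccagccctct

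The Pomc window held 2 E-boxes, CAGGTG at -200 and CAGATG at -147 counted from the start, 1 NBRE core at -63 and 1 TATA box at -25. The Pcsk1 window held no E-box. It had a Pitx site at -153 and 3 CRE half-sites, of which those at -78 and -75 overlap on opposite strands and make up the palindrome TGACGTCA. The Pcsk2 window, with a GC content of 82.4%, had 1 E-box at -135 and 1 CRE half-site at -34. Among all 32851 windows of the RefSeq table, 66.2% hold an E-box, 17.8% a CRE half-site, 12.4% a TATA box, 12.3% a T-box half-site, 6.25% a Pitx site, 6.02% a canonical E-box and 4.08% an NBRE core. The median GC content of all windows is 52.4%. A match is a description of the letters in this window and not a binding site. Of the 8 members, 6 matched an entry of the table, the others being Avpr1b and Oacyl.

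Pomc was among the most abundant transcripts of the pituitary, and the other 7 genes lay far below it. On the deposited FPKM scale, which divides counts by gene length and library total and so allows genes to be compared, the median over the 32 pituitaries was 12288 for Pomc, and only 2 genes of the table had a higher median. Next came Pcsk2 with a median FPKM of 46.0, Oacyl with 39.8, Pcsk1 with 36.4, Tbx19 with 17.7, Pax7 with 9.05, Crhr1 with 7.09 and Avpr1b with 0.952. Within libraries the order was fixed at 4 of its 7 steps, with the upper gene higher in 32 of 32 libraries. It was looser between Pcsk2 and Oacyl (27 of 32), Pax7 and Crhr1 (24 of 32) and Oacyl and Pcsk1 (20 of 32). The FPKM ranges over all libraries overlapped at these steps, and also between Pcsk1 and Tbx19 and between Tbx19 and Pax7. Pomc alone took from 0.315% to 3.604% of a library's counts.

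Library totals ran from 13514270 to 24924584 counts in pituitary and from 12536371 to 28777668 in ovary. Control 3 of 6M-12W stood apart, with 10.02% of its counts on mitochondrial transcripts against a median of 3.18%. It was also the lowest library for Pomc and for Crhr1. The other libraries of 6M-12W were raised as well, at 4.19% to 6.44%. Outside this set CUMS 1 of 2M-8W, the highest library for Pomc, had 5.35%, and all others had 2.74% to 3.59%. Differences of Pomc between control groups are given with and without control 3 of 6M-12W. For Pomc and Crhr1 the stress fold of 6M-12W is also given without controls 3 and 4 together and with single libraries left out. For the other members the stress fold of 6M-12W is not given without control 3. Defining markers of every pituitary cell type searched were detected, none being at 0 in all libraries, including markers of the neural lobe, whose summed level was 36.4 to 86.7 CPM in controls and 34.2 to 82.0 CPM in CUMS pituitaries.

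Pomc was higher in every CUMS pituitary than in every control of its set, in all 4 sets. Levels of a single gene are given here as CPM, counts scaled to library size with TMM factors. In 2M-8W the controls had 8628, 16759.8, 14424 and 10628 CPM and the CUMS libraries 35435, 25448, 17540.3 and 28192 CPM. In 2M-12W the controls had 11462, 8966, 7775 and 12038 CPM and the CUMS libraries 20505, 21994, 15928 and 17558 CPM. The gap between the groups was narrow in 2M-8W, between control 2 and CUMS 3, and wider in 2M-12W. In 6M-8W the controls had 10797, 9277, 11552 and 7601 CPM and the CUMS libraries 13227, 20709, 16375 and 24338 CPM. In 6M-12W the controls had 9121, 6892, 3533 and 5425 CPM and the CUMS libraries 12289, 12373, 10450.2 and 13019 CPM. This last set had the lowest mean of the 4 in both groups, and its gap was between control 1 and CUMS 3. Among all genes tested, the share with every CUMS library above every control library was 1.97% in 2M-8W and 4.66% in 2M-12W, beside 7.44% in 6M-8W and 2.41% in 6M-12W. Over all 4 sets it was 0.0941%, or 16 genes, of which Pomc is 1.

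**Figure D1:**
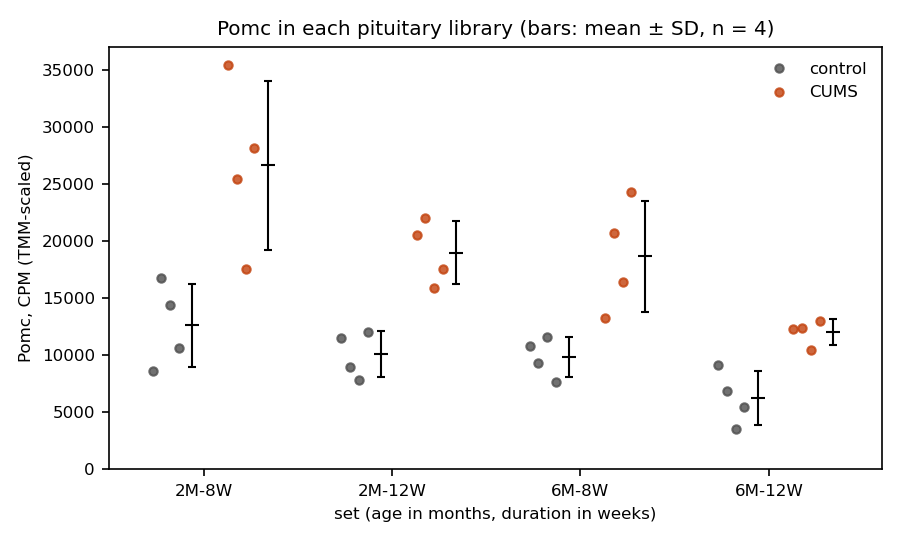
Pomc level in CPM (vertical axis, linear, from 0) for each of the 32 pituitary libraries, by set on the horizontal axis, with controls in dark grey and CUMS in orange and the mean ± SD of 4 libraries in black. In each set all 4 CUMS points lie above all 4 control points, and the 6M-12W set is the lowest in both groups.

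The Pomc difference lay between 0.92 and 1.08 on the log2 scale in each set. Mean levels were 12609.9 ± 3665 CPM in 2M-8W controls and 26654 ± 7393 in CUMS (SD, n = 4 each, as below), 10061 ± 2024 and 18996 ± 2753 in 2M-12W, 9807 ± 1749 and 18662 ± 4871 in 6M-8W, and 6243 ± 2361 and 12033 ± 1104 in 6M-12W. The log2 fold, CUMS over control, was 1.08 ± 0.24 in 2M-8W (SE, edgeR quasi-likelihood test with Benjamini-Hochberg adjustment over all genes, adjusted p = 0.0303) and 0.92 ± 0.24 in 2M-12W (adjusted p = 0.072), beside 0.93 ± 0.24 in 6M-8W (adjusted p = 0.0197) and 0.95 ± 0.24 in 6M-12W (adjusted p = 0.0897). The threshold is an adjusted p under 0.05, which Pomc therefore passed in 2M-8W and 6M-8W. As the mean of the 4 sets the fold was 0.97 ± 0.12 (adjusted p = 2.19e-06), a ratio of 1.96, and it ranged from 0.92 to 1.03 with any single library left out. The calls of single sets were less firm. That of 2M-8W was lost without any of controls 1, 3 and 4 or CUMS 1, 2 and 4 (adjusted p up to 0.164), with the neural lobe markers as a covariate (0.99, adjusted p = 0.0817) and in a fit of its own groups alone (1.09, adjusted p = 0.277). That of 6M-8W was lost without any of controls 2 and 4 or CUMS 2 and 4 (adjusted p up to 0.115). Without controls 3 and 4 of 6M-12W, both lower than the others, the fold of that set was 0.58 (adjusted p = 0.351) and the mean of the sets was 0.88 (adjusted p = 9.93e-06). Leaving out the 2 lowest controls lowers the fold by design. With 1 library of the set left out in turn it ran from 0.74 to 1.19.

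The other 7 genes had smaller folds than Pomc in the mean of the sets. In the mean of the 4 sets 6 of the 8 genes passed the test, all of them higher in CUMS, where 6.44% of all genes tested passed in either direction and 3.07% were called higher. These were Pomc, 3 of the 4 corticotrope genes and 2 of the 3 melanotrope genes. The median fold of the 8 genes was 0.41, beside a median of 0.001 over all genes tested. Within single sets few passed. These were 1 of 8 in 2M-8W (Pomc, 0.424% of all genes) and 2 of 8 in 6M-8W (Pomc and Tbx19, 4.70% of all genes). In 2M-12W (0.582% of all genes) and 6M-12W (0.276% of all genes) 0 of 8 passed. At an unadjusted p under 0.05 there were 7 of 8 in 2M-12W and 6 of 8 in 6M-12W, and with DESeq2 4 of 8 and 3 of 8. No share of all genes is given here or below for the unadjusted p or for DESeq2, so those counts have no background.

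**Figure D2:**
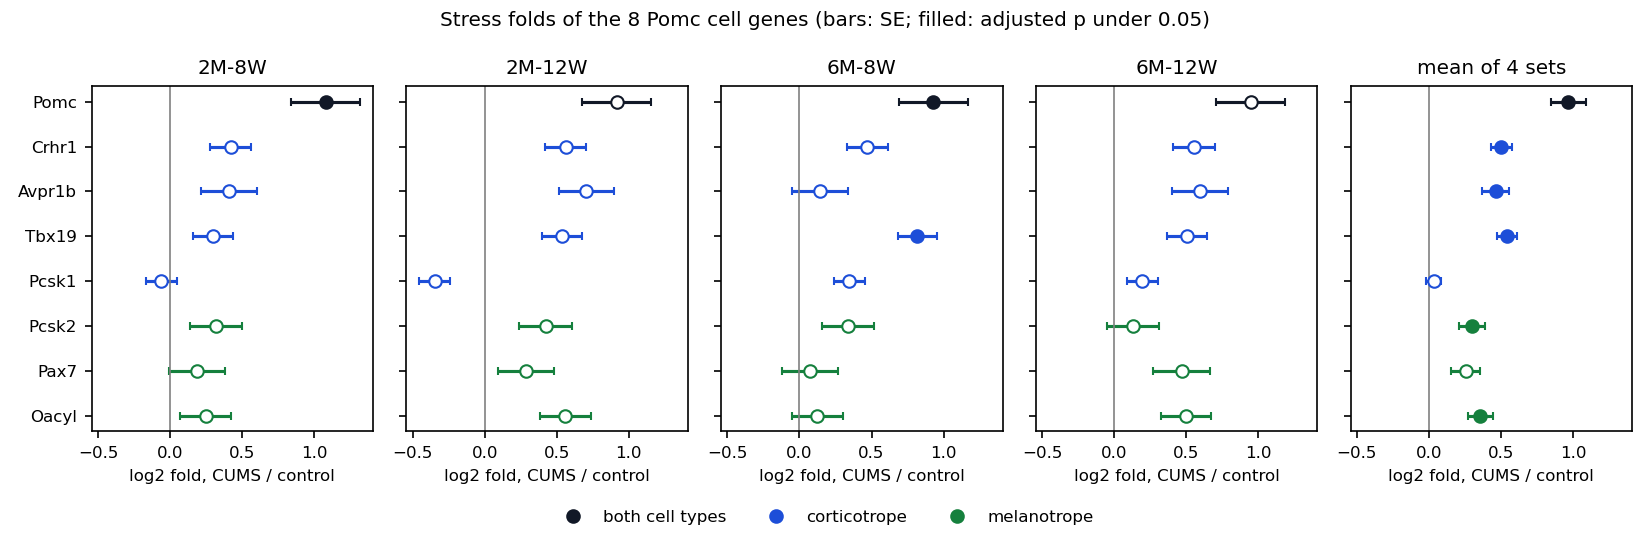
Log2 fold of CUMS over control (horizontal axis, bars SE) for the 8 genes in each of the 4 sets and in their mean, with filled symbols for an adjusted p under 0.05 in edgeR's quasi-likelihood test. Pomc lies near 1 in every panel, most other genes lie between 0 and 0.8, and Pcsk1 changes side between the 2M and the 6M sets.

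Among the corticotrope genes, the 2 receptors were both higher in CUMS pituitaries. Crhr1, the CRH receptor, had 16.8, 20.6, 14.1 and 14.8 CPM in 2M-8W controls and 21.7, 24.1, 24.0 and 18.9 in CUMS. Its 2M-12W values were 20.03, 15.2, 15.4 and 15.7 CPM in controls and 25.0, 25.4, 26.4 and 21.3 in CUMS. Only CUMS 4 of 2M-8W fell among its controls, below control 2. In 6M-8W the controls had 17.2, 15.9, 16.8 and 14.1 CPM and the CUMS libraries 22.0, 26.0, 21.5 and 19.4. In 6M-12W the controls had 14.8, 14.6, 8.14 and 11.4 CPM and the CUMS libraries 20.5, 17.1, 16.9 and 17.3. In these 2 sets, as in 2M-12W, every CUMS library lay above every control. Crhr1 was thus higher than its control mean in 16 of 16 CUMS pituitaries, with folds of 0.42, 0.56, 0.47 and 0.55 in the 4 sets in the order above and of 0.50 ± 0.07 in their mean (edgeR quasi-likelihood test, adjusted p = 2.18e-05). Without controls 3 and 4 of 6M-12W, the lowest for Crhr1 too, the fold in that set was 0.28 (adjusted p = 0.417) and the mean 0.43 (adjusted p = 5.19e-05). With 1 library of the set left out in turn the fold in 6M-12W ran from 0.40 to 0.66.

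Avpr1b, the vasopressin receptor of the corticotrope, was the scarcest of the 8 genes, with 37 to 171 counts per library. Controls had 2.51 to 4.79 CPM in 2M-8W and 3.30 to 4.24 in 2M-12W, beside 3.28 to 4.45 in 6M-8W and 3.53 to 5.03 in 6M-12W. CUMS libraries had 4.36 to 5.86, 5.69 to 7.63, 2.83 to 5.79 and 4.94 to 7.58 CPM in the same order. The groups were separate in 2M-12W alone, where 4.66% of all genes were higher in CUMS without overlap. In 6M-8W the CUMS libraries spanned the whole control range. The fold was 0.41 ± 0.19 in 2M-8W and 0.71 ± 0.19 in 2M-12W, beside 0.14 ± 0.19 in 6M-8W and 0.60 ± 0.19 in 6M-12W, none past the threshold, and 0.46 ± 0.10 in the mean of the sets (edgeR quasi-likelihood test, adjusted p = 0.00247, higher in 15 of 16).

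Tbx19, the T-box factor that switches on Pomc, showed its largest difference in 6M-8W. There the controls had 53.1, 64.5, 63.2 and 47.5 CPM and the CUMS libraries 85.1, 99.3, 101 and 117, with no overlap. In 2M-12W the controls had 62.3, 54.4, 40.2 and 66.7 CPM and the CUMS libraries 79.6, 84.4, 74.6 and 85.7, again with no overlap. Of all genes, 7.44% in 6M-8W and 4.66% in 2M-12W were higher in CUMS without overlap. In 2M-8W (61.0 to 78.0 CPM in controls, 73.8 to 92.6 in CUMS) and 6M-12W (50.3 to 60.6 and 58.3 to 94.1 CPM) 1 CUMS library each fell within the control range. The fold was 0.30 ± 0.14 in 2M-8W and 0.54 ± 0.14 in 2M-12W, beside 0.82 ± 0.14 in 6M-8W and 0.51 ± 0.14 in 6M-12W, and that of 6M-8W passed the edgeR quasi-likelihood test (adjusted p = 0.000334), also with any 1 library of the set left out. The mean of the sets was 0.54 ± 0.07 (adjusted p = 2.89e-06, higher in 16 of 16).

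Pcsk1, the convertase that makes ACTH, did not follow the other corticotrope genes. In 2M-12W the controls had 169.9, 169, 165 and 145 CPM and the CUMS libraries 140.5, 119.5, 112 and 137. In 6M-8W the controls had 142, 138, 114 and 149 CPM and the CUMS libraries 141, 166, 199 and 185. Every CUMS library lay below every control in the first of these sets, where 4.11% of all genes showed such a separation, while in the second 3 of 4 CUMS libraries lay above all controls. In 2M-8W (109 to 135 CPM in controls, 112 to 136 in CUMS) and 6M-12W (96.5 to 124 and 115 to 146 CPM) the groups overlapped. The fold was -0.06 ± 0.11 in 2M-8W and -0.35 ± 0.11 in 2M-12W (adjusted p = 0.152), beside 0.35 ± 0.11 in 6M-8W (adjusted p = 0.0579) and 0.19 ± 0.11 in 6M-12W, none past the threshold in edgeR's quasi-likelihood test. In the mean of the sets these folds of unlike sign gave 0.03 ± 0.05 (adjusted p = 0.824), with 9 of 16 CUMS libraries above their control mean.

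**Figure D3:**
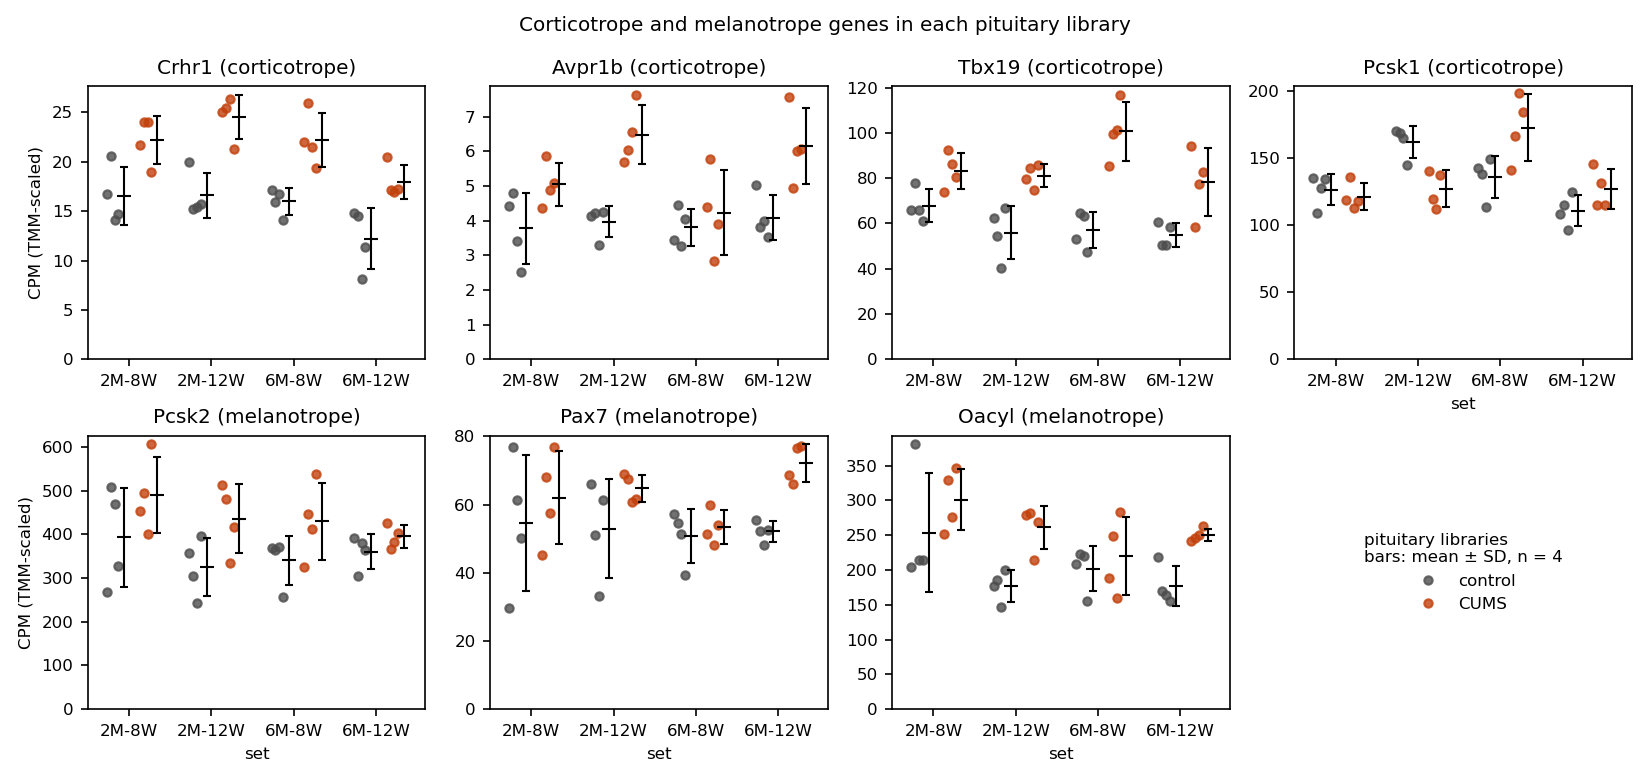
Levels in CPM (vertical axes, linear, from 0, own scale per gene) of the 4 corticotrope and 3 melanotrope genes in each of the 32 pituitary libraries by set, with controls in dark grey, CUMS in orange and the mean ± SD of 4 libraries in black. Crhr1 is higher in CUMS in all 4 sets, Pcsk1 is lower in 2M-12W and higher in 6M-8W, and the melanotrope genes overlap more.

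Of the melanotrope genes, Pcsk2 and Oacyl passed the test in the mean of the sets and Pax7 did not. Pcsk2, the convertase that makes alpha-MSH, had 243 to 508 CPM in controls and 325 to 607 CPM in CUMS over the 4 sets, and its groups overlapped in each of them. Its folds were 0.32 in 2M-8W and 0.42 in 2M-12W, beside 0.34 in 6M-8W and 0.13 in 6M-12W (SE 0.18 in each set) and 0.30 ± 0.09 in the mean (edgeR quasi-likelihood test, adjusted p = 0.04, higher in 15 of 16). That call was close to the threshold and held in 15 of the 32 fits that left out 1 library (adjusted p up to 0.0774).

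Oacyl, a gene of an acyltransferase family, taken here as a melanotrope marker, was separated in 2 sets. In 2M-12W the controls had 177, 186, 146 and 200.3 CPM and the CUMS libraries 279, 282, 215 and 269. In 6M-12W the controls had 219, 169, 164 and 156 CPM and the CUMS libraries 242, 245, 250.03 and 263. No library of the 2 groups overlapped in these sets, where 4.66% and 2.41% of all genes were higher in CUMS without overlap. In 2M-8W (205 to 381 CPM in controls, 252 to 346 in CUMS) and 6M-8W (155 to 223 and 159 to 283 CPM) the groups overlapped. The fold was 0.25 in 2M-8W and 0.56 in 2M-12W, beside 0.12 in 6M-8W and 0.50 in 6M-12W (SE 0.18 in each) and 0.36 ± 0.09 in the mean (edgeR quasi-likelihood test, adjusted p = 0.0106, higher in 13 of 16).

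Pax7, the factor that sets the melanotrope apart, did not pass the test in the mean of the sets (0.25 ± 0.10, edgeR quasi-likelihood test, adjusted p = 0.129), although 14 of 16 CUMS libraries lay above their control mean. In 6M-12W alone all CUMS libraries (66.1 to 77.2 CPM) lay above all controls (48.1 to 55.6 CPM), as for 2.41% of all genes. The 2M-8W controls had the widest spread of any group, with 29.6, 76.9, 61.3 and 50.2 CPM. Its fold was 0.19 in 2M-8W and 0.29 in 2M-12W, beside 0.07 in 6M-8W and 0.47 in 6M-12W (SE 0.20 in each), none past the threshold. Without control 2 of 2M-8W, the highest control, the mean of the sets was 0.31 (adjusted p = 0.0452). Of the 32 fits that left out 1 library, this was the only 1 to pass (edgeR quasi-likelihood test, adjusted p up to 0.211).

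Whether the stress difference depended on age or duration was tested as a difference of folds. In no such comparison did any of the 8 genes pass edgeR's quasi-likelihood test, against 0.465% of all genes for any difference among the 4 sets, 0.0471% for 6M minus 2M and 0.0353% for 12W minus 8W (each 1 of 8 at an unadjusted p under 0.05). Pcsk1 came closest: its fold was higher by 0.47 ± 0.11 in the 6M sets than in the 2M sets (adjusted p = 0.0851; 0.0723 for any difference among the sets), and it passed with DESeq2. Without CUMS 1 of 6M-8W this difference was 0.51 (adjusted p = 0.0322). That was the only 1 of 32 fits leaving out 1 library to pass (edgeR quasi-likelihood test, adjusted p up to 0.192). DESeq2 was the only 1 of 6 other alternatives to pass. For the other 7 genes the adjusted p for any difference among the sets was 0.531 or higher, and a p that misses the threshold does not show that the sets respond alike. The intervals are wide: each difference of Pomc folds between ages or durations has an SE of 0.24.

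Control levels of some members, as of many other genes, differed between the sets. Pomc was lower in 6M than in 2M controls (-0.53 ± 0.17, edgeR quasi-likelihood test, adjusted p = 0.0333) and lower in 12W than in 8W controls (-0.49 ± 0.17, adjusted p = 0.0451). Pcsk1 was lower in 6M controls (-0.22 ± 0.08, adjusted p = 0.0448) and Oacyl in 12W controls (-0.35 ± 0.12, adjusted p = 0.0486). So 2 of 8 genes were called in each comparison, where 16.1% of all genes differed by age (8.96% lower in 6M) and 17.1% by duration (8.57% lower in 12W). With 8 genes, 2 calls are not far from the share of all genes called, and whether they exceed it was not tested. All 4 calls lay near the threshold: with 1 control left out in turn they held in 8 of 16 fits for Pomc by age, 7 of 16 for Pomc by duration, 6 of 16 for Pcsk1 and 6 of 16 for Oacyl. Without the mitochondria-rich control 3 of 6M-12W the Pomc differences were -0.43 (adjusted p = 0.0835) and -0.40 (adjusted p = 0.113). The 6M-12W controls, with 4.19% to 10.02% of their counts on mitochondrial transcripts, enter both comparisons. Age or duration and any batch that follows the sets cannot be told apart.

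Within groups, Pomc varied with all 3 melanotrope genes and with Tbx19. Each library's deviation from its group mean (log2 CPM) was compared over the 32 pituitaries, with permutation within groups and adjustment over 7 relations. With Pcsk2 Pearson's r was 0.67 and Spearman's rho 0.71 (two-sided permutation test, adjusted p = 0.00196 and 0.0021), with Oacyl 0.62 and 0.64 (0.00623 and 0.00469) and with Pax7 0.52 and 0.60 (0.0132 and 0.00546). Of the corticotrope genes, Tbx19 gave 0.42 and 0.44 (permutation test, adjusted p = 0.022 and 0.0384), Crhr1 0.46 and 0.31 (0.0995 and 0.228), Avpr1b 0.12 and 0.05 (0.681 and 0.827) and Pcsk1 -0.01 and -0.15 (0.953 and 0.542). Tbx19 is needed in both cells, so 4 relations passed and none of them is with a gene of the corticotrope alone. Many other genes varied with Pomc as closely. Among 12776 genes ordered by Pearson's r of these deviations with Pomc, Pcsk2 had rank 41, Oacyl 91 and Pax7 461. Crhr1, which did not pass, had rank 891 and so stood above Tbx19 at 1173, with Avpr1b at 4658 and Pcsk1 at 6438. The permutation test was not run for all genes, so the count of 4 has no background. The difference between the correlations was not tested.

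For each gene r was also taken without the 2 libraries whose deviation of that gene, not of Pomc, lay farthest from its median. It was then 0.61 for Pcsk2, 0.60 for Oacyl, 0.41 for Pax7, 0.44 for Tbx19 and 0.23 for Crhr1. Within the sets, taken from the younger 8W and 12W sets to the older 8W and 12W sets with 8 libraries each, r for Pcsk2 was 0.78, 0.95, 0.94 and -0.08. It was 0.45, 0.81, 0.82 and 0.71 for Oacyl and 0.51, 0.85, 0.61 and 0.51 for Pax7. So the relation of Pomc with Pcsk2 did not hold in 6M-12W, while those with Oacyl and Pax7 were positive in all 4 sets. For Tbx19 r was 0.05, 0.83, 0.75 and 0.24. For Crhr1 it was 0.00, 0.40, 0.23 and 0.91, and without the 6M-12W set, which holds the mitochondria-rich control 3, it was 0.16. The 3 melanotrope genes varied together, with r of 0.78 (Pcsk2 and Pax7), 0.73 (Pcsk2 and Oacyl) and 0.68 (Pax7 and Oacyl), and Tbx19 with each of them at 0.55 to 0.64. Among the corticotrope genes r was lower, at 0.43 (Avpr1b and Tbx19), 0.37 (Crhr1 and Avpr1b) and 0.32 (Crhr1 and Tbx19). Pcsk1 gave -0.11 to 0.11 with these, and Avpr1b gave 0.49 with Oacyl. The corticotrope genes thus did not vary as 1 class.

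**Figure D4:**
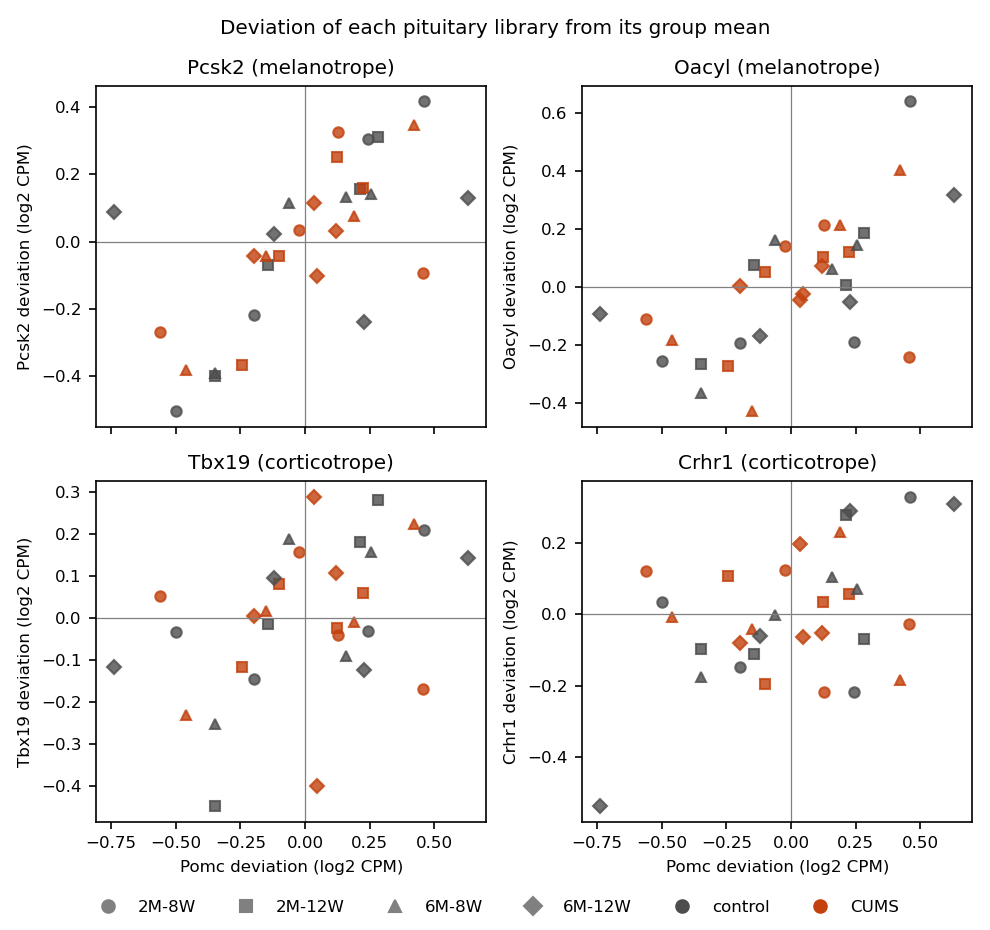
Deviation of each of the 32 pituitary libraries from its group mean in log2 CPM, for Pomc (horizontal axes) against Pcsk2, Oacyl, Tbx19 and Crhr1 (vertical axes), with symbols for the set and colours for control (grey) and CUMS (orange). Points of Pcsk2 and Oacyl rise with Pomc (r of 0.67 and 0.62), and the lowest Crhr1 point, far left, is control 3 of 6M-12W.

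Since Pomc varied with the melanotrope genes, the folds were also taken with the mean log2 CPM of Pcsk2, Pax7 and Oacyl as a covariate. In this fit the mean of the sets was 0.69 for Pomc (edgeR quasi-likelihood test, adjusted p = 0.000392), 0.38 for Tbx19 (adjusted p = 0.000917), 0.44 for Crhr1 (adjusted p = 0.00282), 0.36 for Avpr1b (adjusted p = 0.0928) and 0.07 for Pcsk1 (adjusted p = 0.715). Pomc, Tbx19 and Crhr1 kept their calls and Avpr1b lost its own. Of the 3 genes of the covariate, 2 were themselves called higher in CUMS. In single sets Pomc passed in 2M-8W (0.88, adjusted p = 0.0396) and 6M-8W (0.75, adjusted p = 0.0192), but not in 2M-12W (0.52, adjusted p = 0.44) or 6M-12W (0.62, adjusted p = 0.266).

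Of 8 further marker genes of the 2 Pomc cells 2 passed, beside 6.44% of all genes. In the mean of the sets 1 of 3 further corticotrope markers rose, the glypican gene Gpc5 (0.55 ± 0.10, edgeR quasi-likelihood test, adjusted p = 0.000919), and 1 of 5 further melanotrope markers, Pkib, which encodes a protein kinase A inhibitor (0.51 ± 0.10, adjusted p = 0.00206). Their median folds were 0.05 and 0.14. Markers of other cells moved as well: in the stem and folliculostellate list Cyp2f2 (0.43 ± 0.05) and Sox2 (0.22 ± 0.07) rose, 2 of 4, while Sox9 and S100b had folds of -0.05 and -0.09 and did not pass. The list's summed level was 198 to 301 CPM in controls and 251 to 352 in CUMS, with no overlap in 3 of 4 sets. No background of such separations is given for summed lists, here or below. In the endothelial list Pecam1 and Cdh5 fell, 2 of 4 (-0.30 and -0.29), while Emcn (-0.22) and Kdr (0.09) did not pass. The summed level was 160.3 to 261 CPM in controls and 142 to 209.6 in CUMS.

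In 3 hormone cell lists 1 gene each rose: Ghrhr of 3 somatotrope genes (0.29, with Gh at -0.16 and Pou1f1 at -0.12), Tshb of 4 thyrotrope genes (0.33, with Trhr at 0.12, Dio2 at -0.05 and Pou1f1 again) and Nr5a1 of 4 gonadotrope genes (0.29, with Fshb at -0.48, Lhb at -0.03 and Gnrhr at 0.15). The other genes of these lists did not pass. Of the lactotrope, neural lobe, macrophage, red blood cell and brain lists no gene passed with edgeR. The summed gonadotrope level was lower without overlap in 2M-12W (621 to 729 CPM in controls, 513 to 617 in CUMS), and the macrophage level in 6M-12W (72.0 to 93.4 in controls, 55.3 to 67.6 in CUMS). Ovary markers were traces, with Cyp11a1 the 1 of 4 tested to rise (1.78 ± 0.33), and their summed level was higher without overlap in 2M-8W (6.16 to 9.29 CPM in controls, 10.5 to 12.1 in CUMS) and 6M-8W (1.61 to 2.38 and 8.04 to 9.32 CPM), the sets in which Pomc was called. With the neural lobe markers as a covariate the mean fold of Pomc was 0.93 (edgeR quasi-likelihood test, adjusted p = 8.18e-06), and with the 6M-12W controls 3 and 4 left out it was 0.88. The part of the stem cell, endothelial, gonadotrope, macrophage and ovary markers in the results was not tested.

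Of 15 genes of glucocorticoid feedback tested of 16, 6 rose and 1 fell in the mean of the sets, beside 6.44% of all genes called, with a median fold of 0.24 beside 0.001 over all genes. The co-chaperone gene Fkbp5 rose by 0.61 ± 0.07 (edgeR quasi-likelihood test, adjusted p = 4.58e-07), the metallothionein genes Mt2 and Mt1 by 0.56 ± 0.07 and 0.43 ± 0.06 (adjusted p = 1.12e-06 and 2.45e-05) and Tsc22d3, which encodes GILZ, by 0.36 ± 0.07 (adjusted p = 0.00151). Hsd11b1, whose enzyme regenerates active glucocorticoid, was the 1 that fell (-0.23 ± 0.06, adjusted p = 0.0188). These lists were drawn up with earlier results of the same data known.

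Other lists of Pomc transcription, signalling and processing are to be read beside the same 6.44% of all genes. Of 12 transcription factors with a known role at Pomc, 1 rose, Isl1 (0.23 ± 0.06, edgeR quasi-likelihood test, adjusted p = 0.0117), with a median fold of -0.07. Of 20 genes of CRH and cAMP signalling none passed with edgeR (median -0.03, 5 at an unadjusted p under 0.05; the smallest p belonged to Prkaca, -0.08, and Adcy3, -0.13), nor did any of 7 genes of cytokine input (median 0.05, 0 at an unadjusted p under 0.05; Osmr 0.24 and Il6ra 0.11 had the smallest p). Of 15 genes of prohormone processing and the secretory granule, Chga, which encodes chromogranin A, rose (0.23 ± 0.05, adjusted p = 0.00346), and Cadps, which primes dense-core vesicles, and Qpct, a glutaminyl cyclase gene, fell (-0.24 ± 0.05 and -0.35 ± 0.09, adjusted p = 0.00156 and 0.0209). Only 2 of 9 further melanocortin genes were expressed enough to test. Of these the receptor gene Mc3r rose (0.54 ± 0.10, adjusted p = 0.000672), and Mrap2 did not pass (0.10).

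The balance between the 2 convertases is given as the ratio of their FPKM values in each library. Pcsk1 over Pcsk2 was 0.805 ± 0.300 in 2M-8W controls and 0.581 ± 0.0916 in CUMS (SD, n = 4), and 1.19 ± 0.304 and 0.682 ± 0.0957 in 2M-12W. In 6M-8W it was 0.949 ± 0.269 and 0.939 ± 0.145, and in 6M-12W 0.717 ± 0.133 and 0.738 ± 0.0639. The 2M-12W groups did not overlap (0.837 to 1.56 in controls, 0.573 to 0.769 in CUMS), and those of the other sets did. Pomc per Pax7 was higher in every CUMS library than in every control of 2M-8W (1934 to 4965 against 1345 to 1853), 2M-12W (1664 to 2069 against 1102 to 1483) and 6M-8W (1633 to 2870.4 against 1079.7 to 1425), and overlapped in 6M-12W (867 to 1188 against 466 to 1043). Pomc per Tbx19 was separate in 2M-12W alone (820.4 to 1043 in CUMS against 659.9 to 775 in controls). It overlapped in 2M-8W (816 to 1922 against 524 to 874), 6M-8W (622 to 835 against 576 to 813) and 6M-12W (523 to 849.9 against 279 to 603). Neither ratio was tested, and no background is given for the separation of groups by a ratio.

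Genes whose level over the 32 pituitaries followed a member most closely were sought among 12776 tested genes of sufficient level, by Pearson's r of log2 CPM and as a description. For Pomc these were Dll3 (0.88), Nelfcd (0.87), Aldoc (0.87), Kcnip3 (0.86) and Krt18 (0.84), and Crhr1 ranked 12th (0.83). For Crhr1 they were Cadm4 (0.90), Aldoc (0.87), Anxa11 (0.87), Haus8 (0.86) and Selenbp1 (0.85), with Pomc 10th. For Pax7 they were Tle3 (0.87), Ppp1r17 (0.81), Pirt (0.79), Vax1 (0.78) and Cdh22 (0.77), with Pcsk2 13th (0.70). These r share the group differences, the library and its depth. Once group means were removed, the first for Pomc were Gsdmd (0.83), Nelfcd (0.82), Cldn3 (0.78), Elf3 (0.76) and Agrn (0.74), for Crhr1 Baiap3 (0.83), Gramd4 (0.80), Asic4 (0.79), Relt (0.79) and Pink1 (0.78), and for Pax7 Vax1 (0.89), Tle3 (0.89), Slit1 (0.84), Cdh22 (0.80) and Sstr1 (0.79). Vax1, Tle3 and Cdh22 stood in both Pax7 lists and Nelfcd in both Pomc lists.

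In the ovary all 8 genes were far below their pituitary level. Median FPKM was 5.15 for Pomc, 0.631 for Crhr1, 0.142 for Tbx19, 0.0940 for Pcsk2, 0.0666 for Pcsk1, 0.0621 for Oacyl and 0 for Avpr1b and Pax7. Avpr1b had 4 counts in all 31 ovaries (0 in 29 of them) and Pax7 had 17 (0 in 24). The pituitary median was 2388 times the ovary median for Pomc and 11.2 times for Crhr1. Of the 8 genes, 5 passed the ovary filter on low counts (Pomc, Crhr1, Tbx19, Pcsk2 and Oacyl).

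Ovary libraries also held counts of Gh and Prl, the hormones of the pituitary somatotrope and lactotrope. In controls 1 to 3 of 2M-8W the 2 together came to 0.214, 0.723 and 0.182 CPM, against 33.4 CPM or more in each of the other 28 ovaries and 34.6 to 74.2 CPM in the CUMS ovaries of the same set. In control 1 of 2M-12W these were 12034 and 21312 counts, and that library also had 1510 counts of Pomc, against 11 to 288 in the other 30 ovaries. Multiplying the Gh and Prl counts of each ovary by the median pituitary ratio of each gene to them gave 4595 counts of Pomc over all ovaries, beside 4766 counted. Control 1 of 2M-12W carries much of that sum (2247 reckoned, 1510 counted), and without it 2347 were reckoned and 3256 counted, or 72.1%. In controls 1 to 3 of 2M-8W 0.202 to 1.01 were reckoned and 11 to 24 counted. Without control 1 of 2M-12W the reckoned counts were 0.315% of those counted for Crhr1, 4.21% for Tbx19, 14.1% for Pcsk2, 18.9% for Oacyl, 19.8% for Pcsk1, 83.2% for Avpr1b (1 counted) and 136% for Pax7 (8 counted).

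Crhr1 was higher in CUMS ovaries than in controls. In 2M-8W the controls had 1.29, 1.06, 1.57 and 0.885 CPM and the CUMS ovaries 1.39, 5.27, 3.92 and 4.11. In 2M-12W the controls had 2.83, 0.497, 0.389 and 0.342 CPM and the CUMS ovaries 0.820, 2.80, 2.89 and 3.75. In the first of these sets 1 CUMS ovary lay among the controls, and in the second 2 lay below control 1, the library rich in pituitary transcripts. In 6M-8W the controls had 0.136, 0.224, 1.04 and 0.143 CPM and the CUMS ovaries 3.09, 3.27, 2.33 and 3.58. In 6M-12W the controls had 0.615, 0.0724 and 1.13 CPM and the CUMS ovaries 2.59, 2.10, 1.57 and 2.91. Both 6M sets were free of overlap, and no share of all genes is given for such a separation in ovary. The lowest control values rest on 2 to 4 counts.

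**Figure D5:**
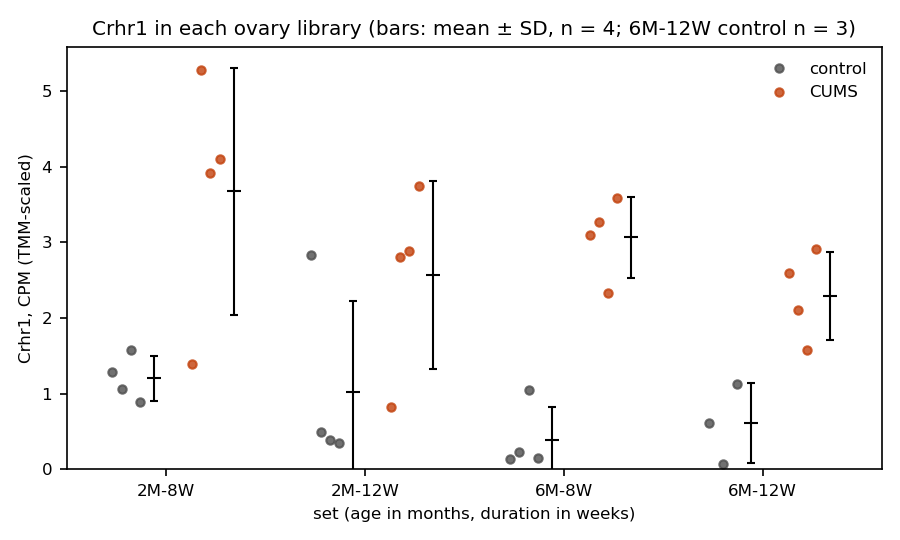
Crhr1 level in CPM (vertical axis, linear, from 0) in each of the 31 ovary libraries by set, with controls in dark grey, CUMS in orange and the mean ± SD in black. CUMS ovaries lie above controls in both 6M sets, and control 1 of 2M-12W stands above the other 3 controls of its set.

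The mean log2 fold of Crhr1 over the 4 ovary sets was 1.94 ± 0.33 (edgeR quasi-likelihood test, adjusted p = 0.000194, higher in 15 of 16). Of the 5 members tested in ovary it was the only one called in this comparison, where 20.3% of all 17766 genes passed and 8.86% were called higher. A count of 1 of 5 is near the share of all genes that passed. The fold was 1.62 ± 0.62 in 2M-8W and 1.30 ± 0.62 in 2M-12W, beside 2.93 ± 0.69 in 6M-8W (adjusted p = 0.0424, where 1.12% of all genes passed) and 1.91 ± 0.71 in 6M-12W. The mean passed in each of the 31 fits that left out 1 ovary, with folds of 1.81 to 2.27. Without the pituitary-rich control 1 of 2M-12W the fold of that set was 2.65 (adjusted p = 0.0112) and the mean 2.27 (adjusted p = 1.04e-05). Without the 2M-8W controls 1 to 3, which leaves 1 control there that is assumed to vary like the other groups, the mean was 2.04 (adjusted p = 0.00314) and the 2M-8W fold 2.03 (adjusted p = 0.353). With 1 ovary left out the fold ran from 2.64 to 4.15 in 6M-8W, the highest without control 3, and from 1.39 (without control 2) to 2.81 (without control 3, adjusted p = 0.038) in 6M-12W. The single call of 6M-8W was lost without any of controls 1, 2 and 4 or CUMS 2, 3 and 4 (adjusted p up to 0.143). The stage of the cycle of each animal is not stated in the labels.

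Pomc and Oacyl were called in 1 ovary set, 2M-12W, where both were lower in CUMS (-2.21 ± 0.55 and -1.74 ± 0.46, edgeR quasi-likelihood test, adjusted p = 0.0154 and 0.0218; 6.74% of all genes were called). Without control 1 of that set, the library with the pituitary transcripts, the folds were -0.73 (adjusted p = 0.233) and -1.22 (adjusted p = 0.093), and neither passed. The fold of Pomc in ovary differed among the sets (adjusted p = 0.0322, where 4.84% of all genes passed), but not past the threshold without the 2M-8W controls 1 to 3, which lack the pituitary transcripts (adjusted p = 0.0963).

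The genes lie, on GRCm38 and as the tables place them, at chr12:3954951-3960618 (Pomc, plus strand), chr11:104132855-104175523 (Crhr1, plus), chr1:131599239-131612000 (Avpr1b, plus), chr1:165137855-165160773 (Tbx19, minus), chr13:75089826-75132498 (Pcsk1, plus), chr2:143546156-143816285 (Pcsk2, plus), chr4:139737062-139833528 (Pax7, minus) and chr18:65698268-65751601 (Oacyl, plus). The tables give 1 value per gene, so no exon or transcript form can be told apart.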

How the data were processed

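The authors deposited, for each tissue, raw read counts per gene and FPKM values, per the file headers. Per the labels, a chloroform method gave the total RNA, and the library kit was NEBNext Ultra II. No aligner, counter or annotation is named in the labels or headers. The deposited FPKM values lay within 1% of count over library total over 1 fixed length per gene in 100% of the values compared, and were used only to compare genes.

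Pituitary and ovary were fitted apart, each as 8 groups in 1 model, with filterByExpr, TMM factors and the quasi-likelihood F test of edgeR 4.0.16 (R 4.3.3), adjusted by Benjamini-Hochberg over all genes tested, with a threshold of 0.05. The biological coefficient of variation was 0.158 in pituitary and 0.207 in ovary. SE is the fold divided by the square root of F. Deviations used log2 CPM with a prior count of 2 and 100000 permutations. No pair of libraries within a group was identical. All members are named in each comparison. Of each list, up to 4 genes past the threshold with the smallest p are named, or up to 2 where none passes. The likeness lists hold the first 5 genes. The members and lists were chosen with earlier results of these data known. Alternatives were DESeq2 1.42.0, RLE or upper-quartile factors, no filter, own groups only, replicate blocks, covariates and leaving out libraries. The neural lobe covariate and the ovary alternatives were chosen after seeing the data. The steps were tested on simulated counts.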

Additional observations from a re-analysis of the deposited data

Results flagged for a closer look

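In 98 groups of 4 libraries screened, 11 held 1 library that stood apart from the other 3 by Dixon's criterion. Chance gives about 1 in 20 groups. In pituitary these were Crhr1 in control 1 of 2M-12W (20.03 CPM, next 15.7) and in CUMS 1 of 6M-12W (20.5, next 17.3), Avpr1b in control 3 of 2M-12W (3.30, next 4.13), Pcsk2 in control 4 of 6M-8W (257, next 365) and Oacyl in control 2 of 2M-8W (381, next 214). In ovary, control 1 of 2M-12W stood apart for Pomc (64.8 CPM, next 14.3), Crhr1 (2.83, next 0.497) and Pcsk1 (1.59, next 0.440). Control 3 of 6M-8W did for Crhr1 (1.04, next 0.224), CUMS 4 of 2M-8W for Pcsk2 (1.01, next 0.754) and CUMS 3 of 6M-8W for Pcsk2 (0.969, next 0.707).

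The stress fold of Pomc in ovary differed among the 4 sets (edgeR quasi-likelihood F test, adjusted p = 0.0322, where 4.84% of all ovary genes passed). It was 1.69 in 2M-8W and -2.21 in 2M-12W, beside -0.23 in 6M-8W and 0.66 in 6M-12W. The 2M-8W controls 1 to 3 held 0.182 to 0.723 CPM of Gh and Prl together and the CUMS ovaries 34.6 to 74.2 CPM. Without these 3 controls the 2M-8W fold was 0.70 and the difference among sets no longer passed (adjusted p = 0.0963). Without control 1 of 2M-12W the adjusted p was 0.0348. The call held in 26 of 31 fits that left out 1 ovary.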

How the results depend on the processing

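The number of the 8 genes past the threshold depended on the setting in single sets. With 1 library left out it ran from 0 to 1 in 2M-8W, 0 to 2 in 2M-12W, 1 to 3 in 6M-8W, 0 to 2 in 6M-12W and 5 to 7 in the mean of the sets. For differences of stress folds it ran from 0 to 1 among all sets and by age and was 0 by duration. For controls it ran from 0 to 3 by age and 0 to 2 by duration. DESeq2 called 4 in 2M-12W, 4 in 6M-8W, 3 in 6M-12W and 1 for any difference among sets and by age. No share of all genes is given for DESeq2 or the other settings of this paragraph, so their counts have no background here. The neural lobe covariate gave 0 in 2M-8W and 3 in 2M-12W, and fits of own groups gave 0 and 1. Without a filter 1 was called in controls by age and 1 by duration. Under the melanotrope covariate 0 of Pomc and the corticotrope genes were called in controls by duration.

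Replicate numbers paired no animals in the labels. Deviations of same-numbered libraries correlated at -0.07 to 0.27 (over 0.1 in 5 of 16 pairs). Among the 4 libraries of the other group of their set, 15 of 32 libraries correlated best with their own number. This is more than a random pick among 4 would give on average, and its source was not tested. With the replicate block 1 gene was called in 2M-12W and 1 in 6M-12W.

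With 1 library left out, the fold ranged from -0.053 to 0.29 for Avpr1b in 6M-8W, -0.017 to 0.40 for Pax7 in 2M-8W, -0.034 to 0.13 for Pax7 in 6M-8W and -0.025 to 0.24 for Oacyl in 6M-8W. The correlation of Pomc with Pcsk1 was 0.13 with CPM by library total. Low counts limit Avpr1b in pituitary and every member in ovary.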
